A study of Mus musculus with 36 samples.

Results

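The genes described here set the activity of the pyruvate dehydrogenase complex: the 4 kinases Pdk1, Pdk2, Pdk3 and Pdk4, the 2 phosphatases Pdp1 and Pdp2, and Pdha1 and Pdhb, which encode the alpha and beta subunits of the enzyme's E1 component. Their rows were picked by gene symbol and not by an expression value, but the genes were chosen with earlier results of these data known. Each of the 8 symbols matched 1 row in both gene tables, which hold 37991 rows for kidney and 33495 rows for liver. Total RNA from kidney and liver of 12-month-old male C57BL/6 mice had been sequenced as bulk tissue in 36 libraries, 18 per tissue. In each tissue 7 libraries came from mice switched for 1 week to a ketogenic diet, 6 from mice switched for 1 week to a high-fat diet, and 5 from mice kept on the control diet. The labels give the ketogenic diet 90% of its energy as fat and 10% as protein, the high-fat diet 75% as fat, 10% as protein and 10% as carbohydrate, and the control diet 12% as fat, 10% as protein and 78% as carbohydrate. All mice had first been habituated to the control diet, and tissue was taken at night, during the feeding period. The labels do not say that each library is a separate mouse, so the p-values measure the spread between these libraries.

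The pyruvate dehydrogenase complex sits in the mitochondrial matrix and converts pyruvate to acetyl-CoA, which commits carbon from glucose to oxidation or to fat synthesis. The kinases phosphorylate the E1 alpha subunit and switch the complex off, and the phosphatases remove the phosphate and switch it on again. In liver and kidney, both of which make glucose, a complex that is switched off leaves pyruvate to other uses. Of the 4 kinases, Pdk4 is the one best known to be induced at the level of its mRNA by fasting and by fat feeding.

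Kidney libraries held 25.4 to 47.04 M counts (M, mega), of which 68.3 to 79.7% lay on mitochondrial genes, and liver libraries 18.9 to 35.9 M, with 49.7 to 71.7% mitochondrial. These shares overlapped between the diets in both tissues. Levels are given below as counts per M (CPM) of the whole library after TMM scaling, which corrects for composition among the libraries of a tissue. Kidney and liver were scaled apart and their tables were made separately, so their levels stand side by side without a test. The labelled tissues carried their own markers: 6 proximal tubule genes summed to 5080 to 8760 CPM in kidney and to at most 2.03 CPM in liver, and 6 hepatocyte genes summed to 29800 to 45800 CPM in liver and to at most 68.8 CPM in kidney. In bulk RNA a lower level can come from fewer cells of a type or from less RNA per cell, and these cannot be told apart. One library stood apart: control replicate 0 of liver had 11 CPM over 6 skeletal muscle markers, against at most 1.97 CPM in the other 17 liver libraries, and 235 CPM over the macrophage markers, against 64.9 to 148 CPM. Liver log2 changes for ketogenic over control are given with and without it.

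Pdk4 is the gene on which the results turn, so the 250 bases before its transcription start are shown. They lie on the minus strand of mouse chromosome 6 in RefSeq's GRCm38.p6 (chr6:5496279-5496528), and the sequence reads 5′ to 3′ along the gene. The capitals mark the single match found among 5 short motifs searched on both strands: a CAAT box in reverse (ATTGG), starting 131 bases before the start site.
Pdk4: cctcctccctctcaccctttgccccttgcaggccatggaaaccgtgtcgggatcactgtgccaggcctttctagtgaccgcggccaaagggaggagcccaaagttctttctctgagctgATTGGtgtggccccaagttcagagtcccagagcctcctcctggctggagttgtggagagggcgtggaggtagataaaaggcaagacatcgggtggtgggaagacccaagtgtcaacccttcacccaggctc
The CAAT box (CCAAT) occurs in 33.85% of the 32851 promoter windows of this length in the RefSeq table. The other motifs searched were the forkhead core TGTTTAC, held by 3.17% of all windows, the nuclear receptor core site AGGTCA, held by 14.02%, the GC box GGGCGG, held by 32.7%, and the TATA box TATAAA, held by 12.4%. None of these exact letter strings is in the Pdk4 window, which says nothing of other spellings or of sequence outside it.

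Pdk4 was the one gene of the 8 whose change between diets passed the edgeR test, and it passed in kidney. Its level was 48.9, 27.3, 26.8, 31.8, 38.2, 36.5 and 45.1 CPM in the 7 ketogenic kidneys. In the 6 high-fat kidneys it was 17.6, 13.2, 16.8, 20.05, 14.04 and 16.6 CPM. The 5 control kidneys had 6.16, 6.84, 6.67, 4.90 and 6.59 CPM. The 3 diets formed 3 steps with no overlap: every ketogenic library lay above every high-fat library, and every high-fat library above every control library. The share of all genes tested in kidney that separate the diets in this way was not counted. The lowest Pdk4 count behind these values was 171 reads and the highest 1509.

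**Figure D1:**
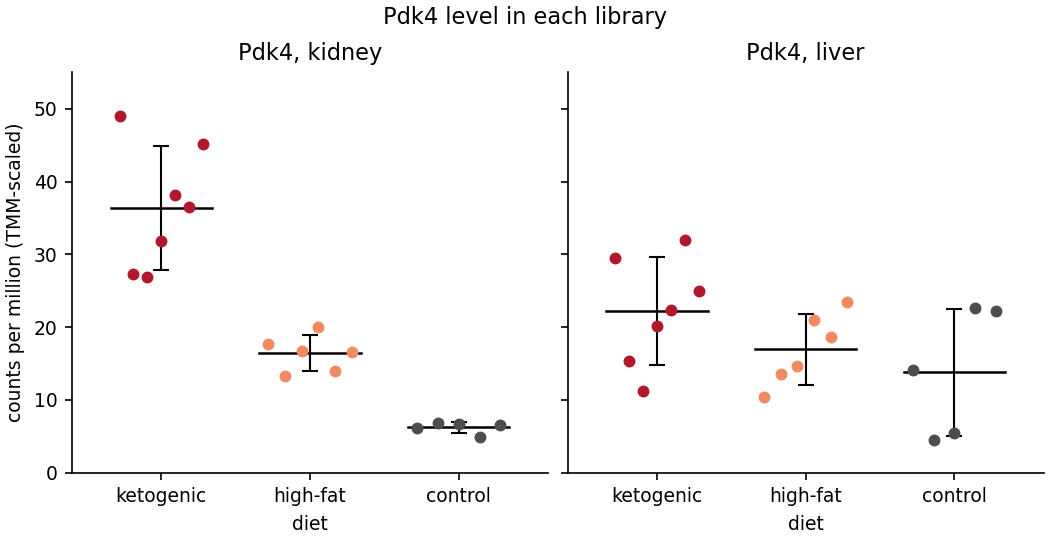
Pdk4 level in CPM after TMM scaling (y axis, linear from 0) in each kidney library (left) and liver library (right), by diet; points are libraries, the horizontal bar is the mean and the whiskers are 1 SD. In kidney the ketogenic points (26.8 to 48.9), the high-fat points (13.2 to 20.05) and the control points (4.90 to 6.84) do not overlap, while in liver the 3 diets share most of their range.

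Pdk4 averaged 36.4 ± 8.48 CPM in ketogenic kidneys (SD, n = 7) and 6.23 ± 0.786 CPM in control kidneys (SD, n = 5), a rise of 5.84-fold. The log2 change was 2.55 ± 0.16 (SE), with a 95% interval of 2.22 to 2.87 (edgeR's quasi-likelihood test with Benjamini-Hochberg adjustment, adjusted p = 7.9e-11). Pdk4 was the only one of the 8 genes past the threshold of 0.05, where 49 of 15074 genes tested in kidney passed it, or 0.325%. It had the smallest p of all of them. The authors' deposited table, which sets control over ketogenic, gives a log2 value of -2.53 for the same pair of diets, with a false discovery rate of 0.0102.

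On the high-fat diet Pdk4 also rose over control, by a smaller step. High-fat kidneys averaged 16.4 ± 2.47 CPM (SD, n = 6), 2.63-fold above control, with a log2 change of 1.40 ± 0.15 (SE) and an interval of 1.08 to 1.71 (edgeR, adjusted p = 2.98e-05). Only 2 genes, 0.0133% of those tested, passed in this comparison, and Pdk4 was again the one member among them. Between the fat-rich diets, Pdk4 was 2.22-fold higher on the ketogenic diet than on the high-fat diet, a log2 change of 1.15 ± 0.14 (SE) with an interval of 0.87 to 1.43 (edgeR, adjusted p = 0.000121). There 7 genes passed, 0.0464% of those tested, with Pdk4 the 1 member. The comparisons share libraries. The control libraries stand in both comparisons with control. The ketogenic and the high-fat libraries each stand in 1 of those and in the comparison between the fat-rich diets. For the high-fat comparisons the authors' deposited table gives false discovery rates of 0.948 against control and 1 against ketogenic.

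Markers of fat and muscle, tissues that express Pdk4, were summed in each kidney library, and their part in the Pdk4 values was not tested. The summed level of 6 adipocyte markers was 1.69 to 9.73 CPM in ketogenic, 1.86 to 21.4 in high-fat and 1.62 to 16.0 in control kidneys, with the highest median, 12.8 CPM, on the high-fat diet. Skeletal muscle markers summed to 2.75 to 4.08 CPM in ketogenic, 3.96 to 6.78 in high-fat and 2.42 to 3.98 in control kidneys. The proximal tubule markers had medians of 6800 CPM in ketogenic, 6850 in high-fat and 7970 in control kidneys, and those ranges overlapped. The hepatocyte list summed to 26.3 to 68.8 CPM in ketogenic (median 58.4), 24.8 to 57.4 in high-fat (median 47.9) and 26.4 to 49.1 CPM in control kidneys (median 37.7), medians in the same order as Pdk4 with overlapping ranges, and its part in the Pdk4 values was not tested.

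The other 3 kinases had log2 changes near 0 in kidney. Pdk2, the kinase found most widely across tissues, had 61.9 to 82.5 CPM in ketogenic kidneys (median 65.6), 50.7 to 74.6 in high-fat kidneys (median 65.2) and 57.7, 62.6, 74.0, 72.0 and 45.9 CPM in control kidneys. The diets overlapped, with log2 changes of 0.19 ± 0.13 (SE) for ketogenic over control (interval -0.088 to 0.46, adjusted p = 0.74) and 0.040 ± 0.14 for high-fat over control (interval -0.24 to 0.32, adjusted p = 0.998; edgeR). Pdk1, best known as a target of the hypoxia response, had 8.14 to 12.0 CPM in ketogenic, 7.79 to 11.1 in high-fat and 9.56 to 10.9 CPM in control kidneys. Its log2 change was -0.090 ± 0.11 (SE) for ketogenic over control (interval -0.31 to 0.13, edgeR adjusted p = 0.873) and -0.15 ± 0.11 for high-fat over control (interval -0.37 to 0.079, adjusted p = 0.996). Pdk3, which is known for its expression in brain and testis, had 8.66 to 14.3 CPM in ketogenic, 7.78 to 14.3 in high-fat and 8.52 to 15.5 CPM in control kidneys. The Pdk3 log2 change was -0.053 ± 0.16 (SE) for ketogenic over control (interval -0.39 to 0.28, edgeR adjusted p = 0.962) and -0.12 ± 0.17 for high-fat over control (interval -0.46 to 0.22, adjusted p = 0.998). For these 3 kinases the intervals of ketogenic over high-fat ran from -0.25 to 0.41 on the log2 scale, and each adjusted p was 1.

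The share of Pdk4 in the kinase mRNA followed its level. Per kilobase of transcript, the level that allows genes of unequal length to be compared, Pdk4 made up 26.9 ± 6.3% of the 4 kinases in ketogenic kidneys (SD, n = 7), 15.4 ± 2.68% in high-fat kidneys (n = 6) and 6.51 ± 1.3% in control kidneys (n = 5). The shares ran from 19.1 to 35.5% on the ketogenic diet, from 12.4 to 19.1% on the high-fat diet and from 4.59 to 8.23% on the control diet. Pdk2 held the largest share on each diet, with 57.9 ± 5.49% in ketogenic, 66.3 ± 2.91% in high-fat and 70.9 ± 5.73% in control kidneys. The summed level of the 4 kinases was 38.7 ± 3.07 CPM per kilobase in ketogenic, 30.6 ± 3.57 in high-fat and 27.7 ± 3.16 in control kidneys, and without Pdk4 the sums were 28.4 ± 3.75, 26 ± 3.46 and 25.9 ± 3.24 in the same order of diets. These shares and sums follow from the gene values above and have no test of their own.

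**Figure D2:**
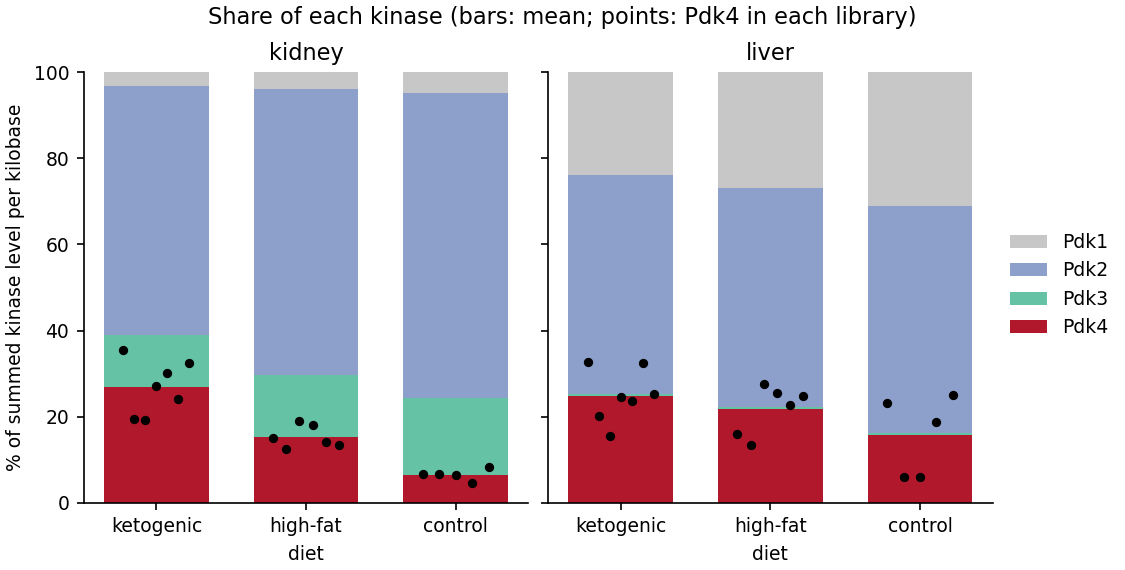
Mean share of each kinase in the summed level per kilobase of the 4 kinases (y axis, percent), by diet, in kidney (left) and liver (right); black points give the Pdk4 share in each library. In kidney the Pdk4 share averages 26.9% on the ketogenic, 15.4% on the high-fat and 6.51% on the control diet, and in liver 24.9%, 21.7% and 15.8%.

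Set against the other genes of the group, Pdk4 changed its place in the kidney. Per kilobase, Pdhb and Pdk2 were highest in control kidneys, at 22.4 to 29.0 and 14.5 to 23.4 CPM per kilobase, followed by Pdha1 at 12.7 to 17.2. Neighbours among these genes overlapped. Pdk3 (3.33 to 6.05) and Pdp2 (3.37 to 5.04) came next and overlapped each other. Below them lay Pdk4 (1.40 to 1.95) and Pdk1 (1.23 to 1.40), whose ranges touched, and last Pdp1 (0.553 to 0.920 CPM per kilobase). Pdk4 ranked 6th of the 8 in 4 control kidneys and 7th in 1. In ketogenic kidneys it reached 7.65 to 13.9 CPM per kilobase, above every value of Pdp2 (4.16 to 6.57) and Pdk3 (3.38 to 5.60) on that diet, and ranked 4th in 6 libraries and 3rd in 1.

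The phosphatases did not pass the test in kidney. Pdp1, the calcium-stimulated isoform, had 1.69, 2.19, 2.79, 1.69, 2.61, 1.96 and 3.13 CPM in ketogenic kidneys, 1.52 to 3.54 CPM (median 2.46) in high-fat kidneys and 4.15, 2.80, 2.49, 3.21 and 3.46 CPM in control kidneys. All 7 ketogenic libraries lay below the control mean, and 4 of them below every control library, but the ranges overlapped. Its log2 change for ketogenic over control was -0.49 ± 0.20 (SE), with an interval of -0.89 to -0.091 and an adjusted p of 0.474 (edgeR; unadjusted p = 0.0182), and for high-fat over control -0.37 ± 0.20 (adjusted p = 0.922). Pdp1 was counted thinly, with 44 to 167 reads a library.

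Pdp2, the isoform that is insensitive to calcium, had 14.5 to 22.9 CPM in ketogenic kidneys (median 15.9), 10.6 to 17.8 in high-fat kidneys (median 14.9) and 13.4, 12.1, 15.6, 17.6 and 11.7 CPM in control kidneys. Every ketogenic library lay above the control mean, though only 3 lay above every control library. The log2 change was 0.28 ± 0.14 (SE) for ketogenic over control (interval -0.0099 to 0.56, edgeR adjusted p = 0.613) and 0.26 ± 0.13 for ketogenic over high-fat (interval -0.0093 to 0.53, adjusted p = 1). Pdp1 supplied 9.63 ± 2.86% of the phosphatase level per kilobase in ketogenic, 12.2 ± 4.1% in high-fat and 15.3 ± 3.66% in control kidneys. The ratio of the summed kinases to the summed phosphatases, per kilobase, was 7.32 ± 1.3 in ketogenic, 6.7 ± 1.02 in high-fat and 5.87 ± 0.728 in control kidneys, and the ranges of the diets overlapped.

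The subunits of the target enzyme had flat values in kidney. Pdha1, which carries the serines that the kinases phosphorylate, had 52.5 to 73.4 CPM in ketogenic, 47.3 to 64.6 in high-fat and 48.1 to 65.0 CPM in control kidneys, with a log2 change of 0.063 ± 0.12 (SE) for ketogenic over control (interval -0.18 to 0.31, edgeR adjusted p = 0.931). Pdhb, its partner in the E1 tetramer, had 32.3 to 44.5 CPM in ketogenic, 32.7 to 47.8 in high-fat and 33.3 to 43.1 CPM in control kidneys, with a log2 change of -0.057 ± 0.12 (interval -0.31 to 0.19, adjusted p = 0.943). For high-fat over control both had a log2 change of -0.060 to -0.064 (adjusted p = 0.998 each). On the X chromosome Pdha1 (156560141 to 156576345, minus strand, mm9) overlaps Map3k15 on the other strand, which drew 4976 reads over all kidney libraries and 429 over all liver libraries. Pdk2, on chromosome 11 (94887572 to 94902668, minus strand), overlaps Gm11513, with 101 and 25 reads in the same order of tissues. Whether reads were counted by strand is not given in the sources used here. Part of the Pdha1 and Pdk2 counts may therefore belong to these partners, and the size of that part was not measured.

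**Figure D3:**
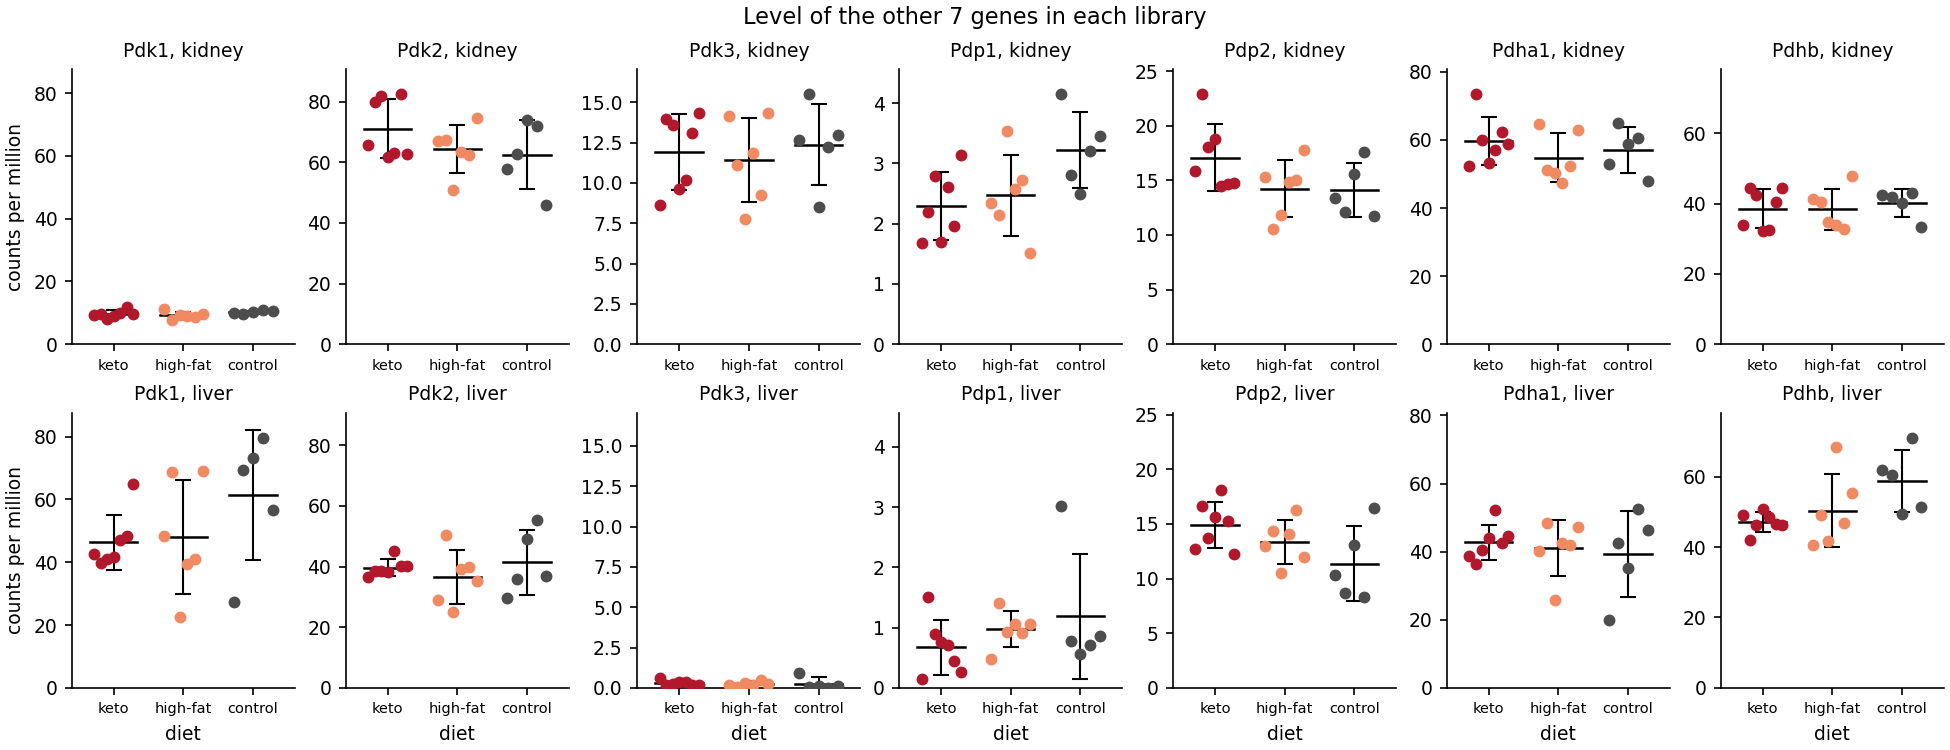
Level in CPM (y axes, linear from 0, 1 scale per gene) of the 7 genes other than Pdk4 in each kidney library (top row) and liver library (bottom row), by diet; points are libraries, bars the mean and whiskers 1 SD. The diets overlap for every gene, and liver control replicate 0 is the high point of Pdp1 at 3.02 CPM and the low point of Pdha1 at 19.8 CPM on its diet.

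In liver none of the 7 members that could be tested passed the threshold in any pair of diets, and neither did any of the 13374 genes tested, so that 0% were called for ketogenic over control, 0% for high-fat over control and 0% for ketogenic over high-fat (edgeR). At an unadjusted p under 0.05 there were 1256, 950 and 426 genes in these comparisons, 2, 0 and 0 of them members. DESeq2 called 76, 1 and 1 genes, with no member among them, though it gave Pdp1 no adjusted p for ketogenic over control. limma-voom called 0 genes in each pair. Pdk3 had 0 to 28 reads a library in liver and was left out by the filter on low counts.

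Pdk4 in liver had 29.5, 15.4, 11.3, 20.2, 22.4, 32.03 and 24.95 CPM on the ketogenic diet, 10.4, 13.6, 14.7, 20.95, 18.6 and 23.4 CPM on the high-fat diet and 14.1, 4.56, 5.54, 22.6 and 22.3 CPM on the control diet. The control livers were the most spread, with 2 of them near the ketogenic median of 22.4 CPM and 2 below every other liver library. The means were 22.2 ± 7.38 CPM in ketogenic (SD, n = 7), 16.9 ± 4.9 in high-fat (n = 6) and 13.8 ± 8.7 in control livers (n = 5). The log2 change was 0.68 ± 0.35 (SE) for ketogenic over control, with an interval of -0.057 to 1.42 (edgeR, adjusted p = 0.578). It was 0.29 ± 0.36 for high-fat over control (interval -0.47 to 1.04, adjusted p = 0.873) and 0.39 ± 0.33 for ketogenic over high-fat (interval -0.30 to 1.09, adjusted p = 0.999). The interval for ketogenic over control runs from 0.961-fold to 2.67-fold, and without control replicate 0 the log2 change was 0.68 ± 0.41 (adjusted p = 0.786). In the authors' deposited table the log2 value of control over ketogenic in liver is -0.887, with a false discovery rate of 0.593.

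Pdk1 was on average the second kinase of the control liver per kilobase and its level varied widely. It had 39.6 to 64.8 CPM in ketogenic livers (median 42.5), 22.5 to 69.0 in high-fat livers (median 44.8) and 27.4, 69.4, 73.3, 79.6 and 56.7 CPM in control livers, where the lowest value is that of replicate 0. The log2 change for ketogenic over control was -0.40 ± 0.24 (SE; interval -0.91 to 0.11, edgeR adjusted p = 0.655), and without control replicate 0 it was -0.58 ± 0.21 (adjusted p = 0.49). Pdk2 had 36.6 to 45.3 CPM in ketogenic, 25.1 to 50.4 in high-fat and 29.5 to 55.5 CPM in control livers, with a log2 change of -0.060 ± 0.16 for ketogenic over control (interval -0.40 to 0.28, adjusted p = 0.939) and of -0.16 ± 0.16 without that library (adjusted p = 0.907). Pdk3 was close to the limit of detection, at 0.147 to 0.594 CPM in ketogenic, 0.0541 to 0.486 in high-fat and 0.951, 0.0600, 0.128, 0 and 0.127 CPM in control livers. The highest of these is control replicate 0. The library with no read, control replicate 3, allows up to 0.0828 CPM, the worth of 3 reads.

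Per kilobase, Pdk2 made up 50.8 ± 5.72% of the kinase level in ketogenic, 51 ± 5% in high-fat and 52.5 ± 4.53% in control livers. Pdk1 made up 23.9 ± 2.8%, 26.8 ± 6.47% and 31.2 ± 7.81% in the same order, and Pdk4 24.9 ± 6.21%, 21.7 ± 5.65% and 15.8 ± 9.27%. In control tissue the Pdk4 share was 6.51% in kidney and 15.8% in liver. The Pdk1 share there was 4.8% in kidney and 31.2% in liver, and the Pdk3 share 17.8% in kidney and 0.53% in liver. The Pdk3 mean in liver rests on control replicate 0, and in the other 4 control livers it was 0.123 ± 0.091% (SD). Over those 4 the Pdk1 share was 33.9 ± 5.78% and the Pdk2 share 52.0 ± 5.13%. On the ketogenic diet Pdk4 was the second kinase in all 7 kidneys and in 4 of 7 livers, and the third in the other livers.

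Pdp1 was rare in liver, at 0.149, 1.51, 0.889, 0.764, 0.715, 0.442 and 0.263 CPM in ketogenic livers, 0.474 to 1.41 CPM in high-fat livers and 3.02, 0.780, 0.554, 0.717 and 0.857 CPM in control livers. Control replicate 0 was the one library above 1.51 CPM. The log2 change for ketogenic over control was -0.84 ± 0.48 (SE; interval -1.84 to 0.16, edgeR adjusted p = 0.62), and without that library it was -0.14 ± 0.44 (adjusted p = 0.981). For high-fat over control it was -0.30 ± 0.49 with the library and 0.41 ± 0.45 without it. Its part in these values beyond that was not tested. Pdp2 had 12.2 to 18.1 CPM in ketogenic livers (median 15.3), 10.5 to 16.3 in high-fat livers (median 13.5) and 10.3, 8.64, 13.0, 8.28 and 16.5 CPM in control livers. All 7 ketogenic livers lay above the control mean, and the log2 change was 0.39 ± 0.17 (interval 0.044 to 0.74, edgeR adjusted p = 0.482; unadjusted p = 0.0289). Without control replicate 0 it was 0.36 ± 0.18 (adjusted p = 0.663; unadjusted p = 0.0534).

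Pdhb had 42.1 to 51.0 CPM in ketogenic livers (median 46.7), 40.6 to 68.5 in high-fat livers (median 48.0) and 61.9, 60.6, 49.4, 71.1 and 51.4 CPM in control livers. All 7 ketogenic values lay below the control mean and 6 of them below every control value. The log2 change was -0.32 ± 0.13 (SE; interval -0.59 to -0.047, edgeR adjusted p = 0.472; unadjusted p = 0.0236), and without control replicate 0 it was -0.30 ± 0.14 (adjusted p = 0.631). Pdha1 had 36.3 to 52.2 CPM in ketogenic, 25.8 to 48.5 in high-fat and 19.8 to 52.4 CPM in control livers, the lowest in control replicate 0, with a log2 change of 0.12 ± 0.18 with that library (adjusted p = 0.888) and -0.047 ± 0.15 without it (adjusted p = 0.981). The Pdha1 level per kilobase was 0.409 ± 0.0411 of the Pdhb level in ketogenic, 0.374 ± 0.0771 in high-fat and 0.306 ± 0.097 in control livers, or 0.346 ± 0.0421 in the 4 control livers other than replicate 0. In kidney the same ratio was 0.613 ± 0.0586, 0.564 ± 0.0522 and 0.56 ± 0.044. The gene lengths of Pdha1 and Pdhb differ between the tables (3774 and 1485 bases for kidney, 3171 and 1434 for liver), so this ratio is comparable within a tissue.

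The adipocyte list had its highest values on the ketogenic diet in liver. It summed to 35.9 to 69.3 CPM in ketogenic, 8.61 to 51.3 in high-fat and 3.11 to 35.8 CPM in control livers. Nearly all of it came from a pair of its 6 genes. Cidec, a lipid droplet protein that fatty liver also makes, had 24.1 to 41.3 CPM in ketogenic, 8.25 to 34.8 in high-fat and 2.85 to 27.9 CPM in control livers. Cfd, the complement factor adipsin, had 5.42 to 30.2 CPM in ketogenic, 0.363 to 19.8 in high-fat and 0 to 7.87 CPM in control livers. The other 4 genes were at or near 0: over all libraries Adipoq had 1 read in ketogenic, 0 in high-fat and 0 in control livers, Plin1 had 4, 1 and 0, Retn had 0, 0 and 1, and Lep had none. The part of Cidec and Cfd in the liver values was not tested.

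**Figure D4:**
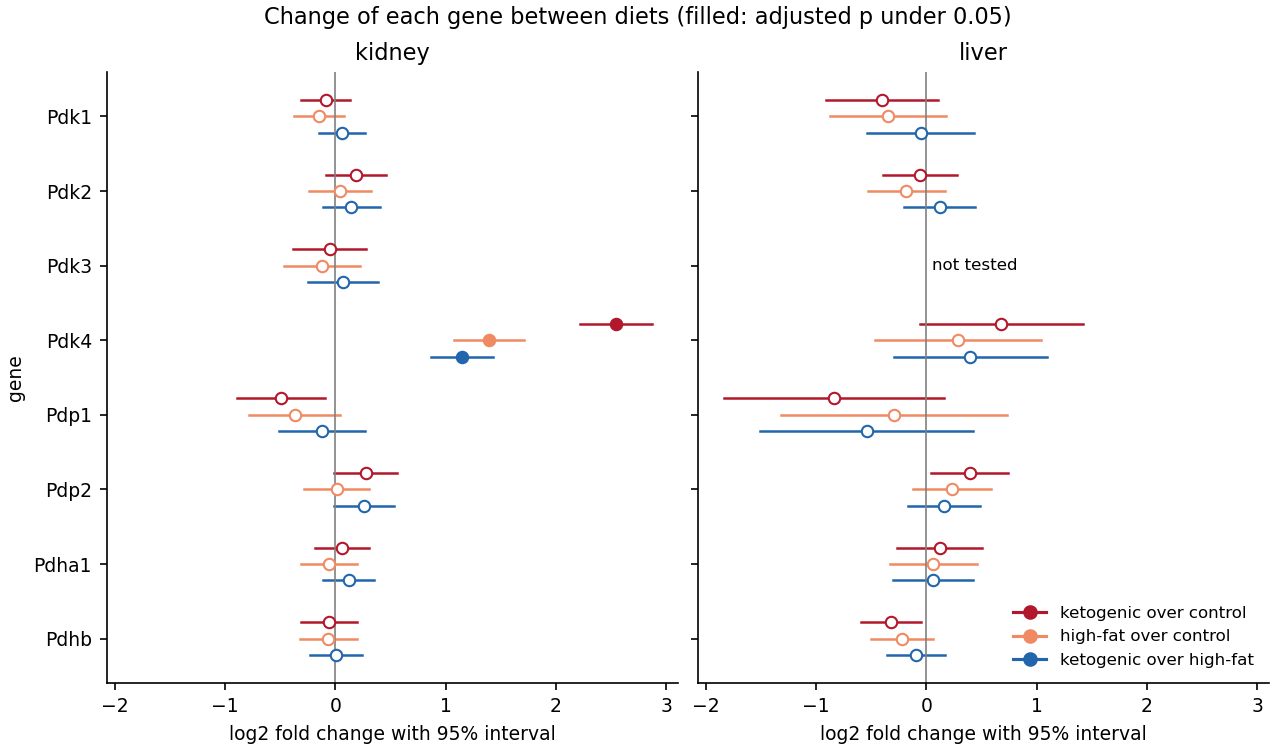
Log2 fold change (x axis) of each gene in kidney (left) and liver (right) for ketogenic over control, high-fat over control and ketogenic over high-fat, with 95% intervals; filled points have an edgeR adjusted p under 0.05. The 3 kidney values of Pdk4 (2.55, 1.40 and 1.15) are the filled points, and most other intervals include 0.

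Whether the diets acted differently in the tissues was tested as an interaction over all 36 libraries. The fit took these libraries as independent, and nothing given says whether a kidney and a liver library come from the same mouse. For Pdk4 the log2 change of ketogenic over control was larger in kidney than in liver by 1.85 ± 0.40 (SE), with an interval of 1.04 to 2.66, but the adjusted p was 0.0684 (edgeR; unadjusted p = 4.43e-05), above the threshold. No gene of 15430 passed this test, 0% of those tested, while 1206 had an unadjusted p under 0.05. DESeq2 called 45 genes, Pdk4 among them with an adjusted p of 0.00356, and limma-voom called 0. With control replicate 1 or 2 of liver left out, the libraries with 4.56 and 5.54 CPM, edgeR gave differences of 2.06 (adjusted p = 0.0249) and 2.04 (adjusted p = 0.0412). Of 45 alternatives for this Pdk4 difference, these and DESeq2, 3 in all, passed and 42 did not. Among the latter, limma-voom gave 1.66 (adjusted p = 0.173) and edgeR with a replicate block gave 1.63 (adjusted p = 0.269). The difference in high-fat over control was 1.07 ± 0.41 for Pdk4 (interval 0.24 to 1.91, adjusted p = 0.761), where 2 genes or 0.013% passed, no member among them. In ketogenic over high-fat it was 0.77 ± 0.37 (interval 0.020 to 1.53, adjusted p = 1), where no gene passed (0%), 571 had an unadjusted p under 0.05, DESeq2 called 1 and limma-voom 0. For the other 7 genes the differences ranged from -0.26 to 0.47 over the 3 comparisons, and each adjusted p was 0.845 or more. Without liver control replicate 0, the differences for Pdk3, which is nearly absent from liver, became -1.94 and -1.87 for ketogenic and high-fat over control (adjusted p = 0.293 and 0.517).

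Over the 8 genes as a group, the count of positive log2 changes differed between the pairs of diets. In kidney 4 of 8 were positive for ketogenic over control, with a median of 0.0048, beside 53.2% and a median of 0.015 over all genes tested. For high-fat over control 3 of 8 were positive, with a median of -0.062, beside 52.7% and 0.011. For ketogenic over high-fat 7 of 8 were positive, with a median of 0.094, beside 51.8% and 0.0064, and Pdk4 was the 1 that passed the test. In liver 3, 3 and 4 of 7 were positive in the same order of pairs, with medians of -0.060, -0.18 and 0.058, beside -0.019, -0.016 and 0.0085 over all genes. Over all genes tested in liver 47.2, 47.8 and 51.6% were positive. For the tissue differences 5, 4 and 7 of 8 were positive, beside 51.1, 48.7 and 52.5% over all genes tested. These counts have no test of their own.

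Other genes of pyruvate oxidation were read from 5 lists: the other subunits of the complex, entry and other fates of pyruvate, the related keto acid dehydrogenases, supply of cofactors, and reported regulators of Pdk4. Of their 45 genes 41 were tested in kidney and 39 in liver, and none passed in any comparison of diets (edgeR). Over all genes tested in kidney, 0.325% passed for ketogenic over control, 0.0133% for high-fat over control and 0.0464% for ketogenic over high-fat. In liver 0% passed in each pair, so no list gene could pass there. At an unadjusted p under 0.05 there were 6 list genes for ketogenic over control in kidney (14.6%, against 8.35% of all genes) and 11 in liver (28.2%, against 9.39% of all genes). DESeq2 called 0 list genes in kidney and 3 in liver for ketogenic over control (Pklr, Ppm1k and Ppard), and limma-voom called 0 in both tissues. For high-fat over control 2 list genes in kidney (4.88%, against 5.73% of all genes) and 5 in liver (12.8%, against 7.1%) had an unadjusted p under 0.05. For ketogenic over high-fat there were 4 in kidney (9.76%, against 4.07%) and 5 in liver (12.8%, against 3.19%), and DESeq2 and limma-voom called 0 in either pair. In the tissue difference DESeq2 called 1 list gene, Pklr in ketogenic over control. The values that follow are for ketogenic over control unless another pair is named.

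Among the other subunits, the kidney log2 values of ketogenic over control ran from -0.12 to 0.080, with Pdhx, the E3-binding protein, at -0.12 ± 0.10 (SE) and Dlat, the E2 acetyltransferase, at -0.12 ± 0.14. In liver Dlat had -0.28 ± 0.17 and Pdhx 0.17 ± 0.13. For entry and other fates of pyruvate, Slc16a1, the transporter MCT1 for lactate, pyruvate and ketone bodies, had 0.58 ± 0.16 in kidney (edgeR adjusted p = 0.147) and the related transporter Slc16a7 had -0.34 ± 0.15 (adjusted p = 0.559). In liver the values were -1.59 ± 0.38 for Pklr, the liver pyruvate kinase (edgeR adjusted p = 0.224), and -1.07 ± 0.33 for Me1, the malic enzyme (adjusted p = 0.307).

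The branched-chain keto acid dehydrogenase is controlled by its own kinase and phosphatase in the same way. Its phosphatase Ppm1k had a log2 value of 0.83 ± 0.23 (SE) for ketogenic over control in liver (edgeR adjusted p = 0.244), and Dlst, the E2 of the 2-oxoglutarate complex, had 0.31 ± 0.14 (adjusted p = 0.5). In kidney Dbt, the branched-chain E2, had -0.24 ± 0.14 and Bckdhb, an E1 subunit, -0.13 ± 0.12 (adjusted p = 0.681 and 0.808). For the cofactors, the kidney values of the lipoate transferases Lipt2 and Lipt1 were -0.53 ± 0.24 and -0.32 ± 0.22 (adjusted p = 0.562 and 0.738).

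Of the 14 reported regulators of Pdk4, 6 had a positive log2 value for ketogenic over control in kidney and the median was -0.022. Ppard, the fatty acid receptor PPAR delta, had -0.46 ± 0.20 (SE; edgeR adjusted p = 0.529) and the coactivator Ppargc1b 0.42 ± 0.20 (adjusted p = 0.583). In liver Ppard had -1.21 ± 0.28 (adjusted p = 0.224) and Lpin1, a phosphatidate phosphatase that also acts as a coactivator, had -1.31 ± 0.41 (adjusted p = 0.341). For high-fat over control, the smallest p among the regulators was that of Nr4a1 in kidney (-0.88 ± 0.45, adjusted p = 0.881) and Lpin1 in liver (-1.03 ± 0.43, adjusted p = 0.68). These are mRNA levels, and several of the regulators are known to act through ligand binding or protein modification.

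In kidney the genes whose log2 CPM most resembled that of Pdk4 over the 18 libraries were Angptl4, an inhibitor of lipoprotein lipase (Pearson r = 0.96), Plin5, a lipid droplet protein (0.897), Nkain1 (0.893), Slc25a42, a mitochondrial coenzyme A carrier (0.892), and Pex11a, a peroxisome division protein (0.886). They were taken from 15074 genes for their likeness, and the 18 libraries share the diet steps. With each diet's mean removed, r was 0.616 for Angptl4 and between -0.063 and 0.19 for the other 4. The log2 change of Angptl4 was 1.87 ± 0.17 (SE) for ketogenic over control and 1.15 for high-fat over control (edgeR adjusted p = 2.11e-07 and 0.00238). Those of Plin5, Nkain1, Slc25a42 and Pex11a for ketogenic over control lay between 0.63 and 1.17, each with an adjusted p of 0.00686 or less. Because these genes were taken for following Pdk4 over the same libraries, their diet changes and p-values are no separate evidence. Among the members, r with Pdk4 in kidney ran from -0.52 for Pdp1 to 0.34 for Pdp2.

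In liver another set stood closest to Pdk4: Hdgfrp2 (r = 0.853), Zfand5 (0.845), Mccc1, a subunit of the leucine-degrading methylcrotonyl-CoA carboxylase (0.836), Otud7b (0.809) and Pgm3 (0.775). They too were taken for their likeness, from 13374 genes over the 18 liver libraries. With each diet's mean removed their r was 0.70 to 0.82. No gene of the 13374 tested passed for ketogenic over control in liver (0%), so none of these 5 could pass (edgeR, their lowest adjusted p = 0.421).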

How the data were processed

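Every kidney and liver value used is a whole raw count of reads on an Ensembl gene, per the file headers, in the table that the authors deposited for that tissue. Although the kidney columns were treated as estimated counts when read, the deposited values were all whole and no rounding changed one. The authors' own log2 fold changes, p-values and false discovery rates stand in the same deposited tables and are printed only where named. TopHat2 2.0.11, featureCounts, Subread, DESeq and edgeR, and the build mm9, appear in the submitters' processing notes without an order. Random and oligo-dT primers were used to amplify the cDNA, per the labels' protocols. Another 90 columns of per-sample values, 54 in kidney and 36 in liver, were not used. Member coordinates are in mm9, and 1 was added to liver starts, which then equal the kidney starts for 77.1% of shared genes.

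Counts were analysed in R 4.3.3 with edgeR 4.0.16: filterByExpr (minimum count 10), TMM, robust quasi-likelihood F test on the 18 libraries of a tissue by diet, and Benjamini-Hochberg adjustment over all genes tested, threshold 0.05. Tissue differences were interactions over 36 libraries and the 31812 genes in both tables. Standard errors are the log2 change over the root of F, and intervals are 95% intervals. DESeq2 1.42.0, limma-voom (limma 3.58.1), other scaling, other filters, a replicate block and leaving out libraries were alternatives. The fits were tested on simulated data. The members and the gene lists were chosen with earlier results of these data known. Text names every member, per list the 2 genes with the smallest p where none passed, for ketogenic over control (for high-fat over control, 1 regulator per tissue), and the 5 genes most correlated with Pdk4 (log2 CPM, prior count 2). Replicate numbers come from the titles and nothing says that they pair libraries. The values of some genes of the cofactor list are not reported here.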

Additional observations from a re-analysis of the deposited data

Results flagged for a closer look

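The 8 genes in 6 groups of libraries gave 48 groups, and in 6 of them 1 library lay far from the others, with its gap to the nearest library larger than Dixon's critical value times the range of the group. Chance flags about 1 in 20 groups. Control replicate 0 of liver was flagged for Pdk3, at 0.951 CPM against at most 0.128 CPM in the other control livers, and for Pdp1, at 3.02 CPM against 0.554 to 0.857 CPM. The same library carries the high skeletal muscle, macrophage and endothelial marker sums, the last at 65.0 CPM against at most 47.4 CPM in the other 17 liver libraries. Their part in its Pdk3 and Pdp1 values was not tested.

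The other 4 flags were each in another library. Pdhb in kidney control replicate 4 was 33.3 CPM, against 40.3 to 43.1 CPM in the other control kidneys. Pdk1 in liver ketogenic replicate 6 was 64.8 CPM, against 39.6 to 48.4 CPM. Pdk2 in liver ketogenic replicate 4 was 45.3 CPM, against 36.6 to 40.2 CPM. Pdha1 in liver high-fat replicate 2 was 25.8 CPM, against 40.3 to 48.5 CPM. No Pdk4 value was flagged in any of its 6 groups.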

How the results depend on the processing

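The rise of Pdk4 in kidney passed the threshold in each of the 28 alternatives run for each of its 3 comparisons, leaving out each library among them, with log2 changes of 2.44 to 2.61, 1.28 to 1.44 and 1.06 to 1.21. No member of the 8 other than Pdk4 passed in any alternative. The 9 comparisons are given below as ketogenic or high-fat over control and ketogenic over high-fat.

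The numbers of genes called moved with the tool and the scaling. In kidney, ketogenic over control gave 18 genes without scaling factors and 105 with DESeq2, against 49. High-fat over control gave 15 with DESeq2, against 2, and ketogenic over high-fat gave 3 without factors, 30 with DESeq2, 4 with limma-voom and 4 without robust estimation, against 7. In liver DESeq2 called 76, 1 and 1 genes, and a fit of only the ketogenic and control libraries called 4 for that pair. For the differences between tissues DESeq2 called 45, 4 and 1 genes, 1 of them the member Pdk4 (log2 difference 1.85 in ketogenic over control). The filter of 1 CPM in 5 libraries gave 4 in ketogenic over control and limma-voom gave 1 in high-fat over control. The cause of these moves was not tested.

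Without scaling factors the median change of all genes moved by -0.115 and -0.119 in kidney (ketogenic and high-fat over control), by -0.108 and -0.179 in liver (ketogenic over control and over high-fat) and by -0.133 and 0.166 in the tissue differences (high-fat over control, ketogenic over high-fat). Small uncalled changes turned sign with it. These were Pdha1 in ketogenic kidney over control (-0.059), Pdk2 (-0.086) and Pdp2 (-0.096) in high-fat kidney over control, Pdk2 (-0.048), Pdp2 (-0.019) and Pdha1 (-0.11) in ketogenic liver over high-fat, and the tissue differences of Pdhb in high-fat over control (-0.037) and Pdk3 in ketogenic over high-fat (0.10). Other turns were Pdk2 (-0.011) and Pdp2 (-0.036) in high-fat kidney with no filter, Pdp2 there with mitochondrial genes left out (-0.0031), Pdhb in ketogenic kidney over high-fat with the 1 CPM filter (-0.0014) or only these diets fitted (-0.0022), and Pdk1 in ketogenic liver over high-fat with limma-voom (0.026).

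The labels do not say what the replicate numbers mark, and the data did not pair all same-numbered libraries. Same-numbered kidney libraries of different diets had a mean correlation of 0.0919 in their deviations, against -0.0166 for other numbers, with 9 of 16 pairs over 0.1. In liver the means were 0.0515 and -0.00639, with 7 of 16 pairs over 0.1. Of the 17 libraries in each tissue with a same-numbered partner, 4 in kidney and 7 in liver correlated best with their own number. A replicate block gave 4 genes in high-fat over control and 3 in ketogenic over high-fat in kidney, 81 in ketogenic over control in liver, against 0 without it, and 0 for the tissue difference in high-fat over control. Pdk4 stayed past the threshold in its 3 kidney comparisons (2.45, 1.38 and 1.08), and Pdhb in ketogenic kidney over high-fat became -0.028. For the tissue differences the block joined the kidney and the liver library of the same diet and number. Such pairs had a mean correlation of 0.00145 in their deviations, against -0.0013 for other numbers, with 3 of 18 pairs over 0.1. The Pdk4 tissue difference in ketogenic over control was 1.63 under this block and did not pass (edgeR adjusted p = 0.269).

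Leaving out 1 library at a time also moved the counts. In kidney, ketogenic over control ranged from 21 to 56 genes, with 24, 21, 25 and 27 without control replicates 0, 3 and 4 and ketogenic replicate 1. Ketogenic over high-fat ranged from 2 to 10, with 2 to 4 without control 0 or 2, high-fat 0, 1 or 4, or ketogenic 0, 4 or 6. In liver, ketogenic over control ranged from 0 to 22, with 22, 14 and 2 without control 4, high-fat 5 and ketogenic 6, and high-fat over control from 0 to 1, with 1 without control 4. The tissue difference in ketogenic over control ranged from 0 to 33 genes, with 33 without liver control 4, 6 without liver high-fat 4 or 5, 4 without liver control 1, 3 without liver control 2, and 1 without kidney ketogenic 2, liver control 3 or liver ketogenic 3 or 5. Members called there ranged from 0 to 1, and the Pdk4 difference from 1.59 to 2.06. In high-fat over control the genes called ranged from 1 to 6, with 6 and 4 without liver control 4 and liver high-fat 4, and 1 without liver control 0 or liver high-fat 2.

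Uncalled log2 changes that turned sign when a library was left out ranged as follows. In kidney these were Pdk3 (-0.18 to 0.040) and Pdha1 (-0.012 to 0.11) in ketogenic over control, Pdk2 (-0.054 to 0.10) and Pdp2 (-0.074 to 0.10) in high-fat over control, and Pdk1 (-0.0091 to 0.12), Pdk3 (-0.026 to 0.14), Pdp1 (-0.22 to 0.016) and Pdhb (-0.041 to 0.077) in ketogenic over high-fat. In liver these were Pdk2 (-0.16 to 0.070) and Pdha1 (-0.047 to 0.25) in ketogenic over control, Pdp1 (-0.46 to 0.41) and Pdha1 (-0.11 to 0.19) in high-fat over control, and Pdk1 (-0.20 to 0.079), Pdha1 (-0.046 to 0.11) and Pdhb (-0.15 to 0.011) in ketogenic over high-fat. Among tissue differences they were Pdk3 (-1.94 to 0.18), Pdp1 (-0.35 to 0.64) and Pdha1 (-0.22 to 0.089) in ketogenic over control, Pdk3 (-1.87 to 0.24), Pdp1 (-0.80 to 0.024) and Pdha1 (-0.30 to 0.033) in high-fat over control, and Pdk1 (-0.0061 to 0.27), Pdk2 (-0.071 to 0.13), Pdk3 (-0.37 to 0.16) and Pdhb (-0.017 to 0.18) in ketogenic over high-fat.

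The 4 kinases have equal gene lengths in both tables, so using the other table's lengths could not change the Pdk4 share. With no length scaling the share moved by less than 1 SD. It was then 28.3% ketogenic, 16.3% high-fat and 6.93% control in kidney, and 20.2%, 17.2% and 12.3% in liver. Depth limits Pdk3 and Pdp1 in liver most, with as few as 0 and 3 reads a library.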
